A study of Mus musculus with 58 samples.

Results

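Adipose stem cells (ASCs) that carry the surface peptidase DPP4, called ASC2, were compared with ASCs that lack it, called ASC1. The libraries are labelled as inguinal white adipose tissue (iWAT) of control male mice. Per the study's methods these mice were not castrated. However, 8 of the 15 libraries held reads of Xist, the RNA of the inactive X chromosome, and few of Y-linked genes. Moreover, 3 of the ASC1 libraries held reads of visceral fat genes. Control male and iWAT are therefore used here as names of labels. The comparison holds 15 of the 58 bulk RNA-seq libraries of the series, 8 of ASC2 and 7 of ASC1. Members were taken by the well in the library name, with letters A to H of column 1 for ASC2 and letters B to H of column 2 for ASC1. The 58 libraries include none of well A2. Per the study's methods, 7 control male ASC1 libraries passed its filter on detected genes. All mice were of the strain C57BL/6J and were killed at 10 weeks of age after a fast of 4 h, and the control males, age matched to the operated groups, had no castration. The sort kept cells without CD45, a leukocyte antigen, and without CD31, an endothelial antigen, that carried CD34, and then split them by DPP4, so ASC1 here joins the ASC1a and ASC1b cells that the study tells apart elsewhere. Control females (16 libraries) and males castrated at 4 weeks of age (16 libraries) of the same strain, age, fast and sort are used below only to set the control male difference beside theirs.

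In subcutaneous fat, DPP4+ fibroblasts are known as interstitial progenitors that lie in the connective tissue sheath around the fat lobules, are rich in matrix genes and can give rise to other fat-tissue fibroblasts. DPP4- cells are held to lie nearer to capillaries and adipocytes and to include preadipocytes that are closer to adipogenesis. DPP4 itself removes short N-terminal ends from peptides such as incretins and chemokines, and Pi16, a secreted or membrane-anchored protein of the CAP family, is another common marker of the same cells.

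The libraries were made with Smart-seq3, a full-length method for small amounts of RNA, and held 461907 to 1421547 estimated counts in ASC2 and 407001 to 1275791 in ASC1. The methods give 8 mice for each group, but not whether a letter marks a mouse, so the p-values below measure the spread between libraries, which may in part be technical. The 15 libraries fell into 2 sets by letter that their labels do not name. Libraries with the letters A to D (4 of ASC2, 3 of ASC1) held no estimated read of Xist and 20 to 133 reads summed over the Y-linked genes Ddx3y, Eif2s3y, Kdm5d and Uty. Libraries with the letters E to H (4 of each) held 27 to 82 Xist reads and 5 to 32 Y-linked reads. The ASC1 libraries B to D also held 7 to 17 reads of Tcf21, 4 to 20 of Wt1 and 7 to 15 of Upk1b, genes of visceral fat and mesothelium, all of which were at 0 reads in the other 12 libraries. Tbx15, a transcription factor gene of subcutaneous depots, was at 0 to 8 reads in those 3 libraries and at 10 to 41 in the other 12. Within letters A to D, ASC2 and ASC1 thus also differed in these depot genes, with Tbx15 at 15 to 24 reads in ASC2. The part of depot in the differences below was not tested. Krt14, of epithelial cells, was at 0 reads in every library A to D and at 9 to 25 reads in ASC1 E to H.

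**Figure D1:**
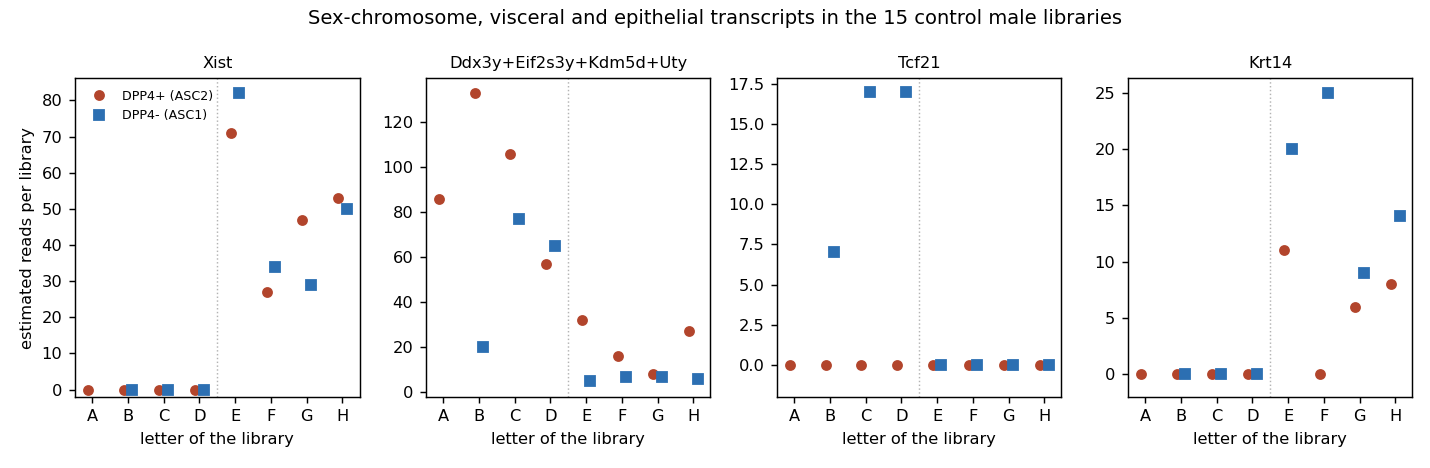
Estimated reads per library (y axis) of Xist, of the 4 Y-linked genes summed, of Tcf21 and of Krt14 by the letter of the library (x axis), with circles for the 8 DPP4+ (ASC2) and squares for the 7 DPP4- (ASC1) libraries. Xist lies at 0 for letters A to D and at 27 to 82 for E to H, and Tcf21 is above 0 only in the ASC1 libraries B, C and D.

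Other cell types moved with the letter sets as well. Sums are given in CPM, read counts scaled to the size of each library, over all genes of a list, tested or not. Macrophage and leukocyte markers (19 genes, 17 of them tested) summed to 5910 to 6940 CPM in ASC1 A to D and 728 to 835 in ASC1 E to H. They summed to 911 to 2090 in ASC2 A to D and 818 to 851 in ASC2 E to H, and Cd3e was at 0 in every ASC1 library. Mural markers summed to 1290 to 1370 CPM in ASC1 A to D and 891 to 1180 in ASC1 E to H, against 144 to 513 in ASC2 A to D and 519 to 1190 in ASC2 E to H, and Higd1b was at 0 in every ASC2 library. Mesothelial and visceral markers summed to 53.7 to 76.2 CPM in ASC1 B to D, against 12.3 to 29.4 in ASC1 E to H and 6.55 to 33.2 in ASC2. Epithelial markers summed to 110 to 232 CPM in ASC1 E to H and 39 to 114 in ASC2 E to H, and to at most 22 in letters A to D. Mature adipocyte markers were low throughout, at 13.1 to 41.8 CPM in letters A to D and 1.15 to 8.34 CPM in letters E to H. Endothelial markers summed to 148 to 246 CPM in ASC2 and 116 to 206 CPM in ASC1, and these ranges overlapped. Fibroblast markers summed to 16400 to 21500 CPM in ASC2 A to D and 19600 to 21600 in ASC1 A to D, which overlapped, and to 20000 to 22700 in ASC2 E to H and 15000 to 19300 in ASC1 E to H, which did not. Pdgfra, the receptor that marks the ASC lineage, lay at 330.4 to 455 CPM (median 385) in ASC2 and 349 to 448 CPM (median 391) in ASC1, and was thus present in every library. The calls in each gene list are therefore given over all 15 libraries and, beside them, within letters A to D and within letters E to H, where a pair of counts gives the genes higher in ASC2 first and those higher in ASC1 second. In bulk libraries fewer cells of a type and less RNA per cell cannot be told apart, and the part of these other transcripts in the differences below was not tested.

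Over the 15 libraries, 858 of 12464 genes tested (6.88%) were higher in ASC2 and 661 (5.3%) were higher in ASC1 by edgeR's quasi-likelihood test at a Benjamini-Hochberg adjusted p under 0.05, and 904 of these differed at least 2-fold. These shares are the background for the counts of gene lists below. A positive log2 fold change means higher in ASC2, and a number in parentheses after a gene is its log2 fold change over the 15 libraries. Without ASC1 library C the number higher in ASC1 fell from 661 to 436. Within letters A to D, 625 genes (5.01%) were higher in ASC2 and 606 (4.86%) in ASC1. Within letters E to H, 136 genes (1.09%) were higher in ASC2 and 38 (0.305%) in ASC1. The sets share no library, but both fits kept the other groups of the series for scaling and dispersion. In all, 109 genes were called in both sets, which is 8.85% of the A to D calls and 62.6% of the E to H calls. Of these, 87 were higher in ASC2 in both sets, 21 were higher in ASC1 in both, and 1, Pdlim4, went in opposite directions, at -1.06 in A to D and 1.21 in E to H. The median log2 fold change of all genes tested was -0.01.

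Dpp4, the gene of the sorted antigen, lay at 121 to 343 CPM (median 241) in ASC2 and at 0.872 to 14.1 CPM (median 7.64) in ASC1. The groups did not overlap, which checks the sort and is no finding, and its log2 fold change was 5.02 ± 0.46 (SE). Pi16, which was not used in the sort, lay at 1410 to 4733 CPM (median 2960) in ASC2 and at 12.7 to 60.7 CPM (median 23.5) in ASC1. Every ASC2 library was far above every ASC1 library, with a log2 fold change of 6.76 ± 0.51 (SE) and an adjusted p of 1.89e-15, and the difference was 6.42 in letters A to D and 7.11 in letters E to H. The label of DPP4+ and DPP4- cells thus held in both letter sets.

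Of the 19 markers of ASC2 progenitors listed, all tested, 15 were higher in ASC2 and none was higher in ASC1, with a median log2 fold change of 2.47. Within letters A to D the counts were 14 and 0, and within letters E to H 13 and 0. The list was written with earlier results of these data known and holds Dpp4 itself, so its direction is no independent evidence. Bmp7, a secreted bone morphogenetic protein, lay at 4.39 to 46.3 CPM (median 16.5) in ASC2 and 0 to 2.55 CPM (median 0) in ASC1, 129 reads in ASC2 and 3 in ASC1 in all, a ratio per scaled read depth of 36.5 (95% exact interval 12.2 to 180), with an adjusted p of 4.38e-06. Sema3c, a secreted semaphorin that guides axons and vessels, lay at 40.9 to 140.5 CPM (median 84.3) in ASC2 and 0 to 11.1 CPM (median 8.54) in ASC1, with a log2 fold change of 3.70 ± 0.48 (SE) and an adjusted p of 1.25e-07. In both genes every ASC2 library was above every ASC1 library. Other markers that passed were Efhd1 (3.90), Stmn4 (3.75), a neuronal microtubule regulator, Arl4d (3.09), Ackr3 (2.80), a scavenger receptor for CXCL12, and Cd55 (2.47), which protects cells from complement. The 4 that did not pass were Il33 (1.08, adjusted p = 0.12), Uchl1 (-0.06, adjusted p = 0.954), Emilin2 (0.44, adjusted p = 0.0963) and Gap43 (0.72, adjusted p = 0.529).

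Of 12464 genes tested, 156 were called higher in ASC2 with a mean of at least 20 CPM in ASC2 and no overlap between the groups. Clone, predicted-gene and Riken names were left out of this count. The 12 of these named for the largest fold change began with Pi16 and Krtdap. Krtdap, a secreted keratinocyte differentiation peptide, lay at 17.9 to 48.7 CPM (median 32.4) in ASC2 and 0 to 0.783 CPM (median 0) in ASC1, and Dmkn, a secreted epidermal protein, at 15.6 to 88.1 CPM (median 80.3) and 0 to 3.47 CPM (median 0.872). Krtdap had 225 reads in ASC2 and 1 in ASC1 in all, a ratio per scaled read depth of 191 (95% exact interval 34 to 7590), and an adjusted p of 3.11e-09. The log2 fold change of Dmkn was 5.39 ± 0.59 (SE). In letters A to D, ASC2 lay at 17.9 to 45.3 CPM for Krtdap and 15.6 to 86.8 CPM for Dmkn. In letters E to H these values were 31.8 to 48.7 CPM and 62.2 to 88.1 CPM. Krt14 was at 0 reads in letters A to D, and an epithelial source of either gene was not tested. Has1, a hyaluronan synthase, lay at 24.7 to 332 CPM (median 156) in ASC2 and 2.55 to 7.11 CPM (median 5.97) in ASC1, with a log2 fold change of 4.83 ± 0.57 (SE) and an adjusted p of 5.82e-09. The lowest ASC2 library, A, was above the highest ASC1 library, as the rule for named genes requires. Gpr1, a receptor for the adipokine chemerin, had 384 reads in ASC2 and 3 in ASC1 in all, a ratio per scaled read depth of 109 (95% exact interval 37 to 530). Pcdh20, a protocadherin, had 161 reads in ASC2 and 2 in ASC1 in all, a ratio per scaled read depth of 68.4 (95% exact interval 18.6 to 570). Ptn, a heparin-binding growth factor, had 152 reads in ASC2 and 3 in ASC1 in all, a ratio per scaled read depth of 43.1 (95% exact interval 14.5 to 211). These intervals cover counting error only, and in each of the 3 genes most ASC1 libraries held no read. Myoc (4.86), a secreted glycoprotein, also had an ASC1 median of 0 CPM. Rorb (4.23), a nuclear receptor, lay at 17.8 to 279 CPM (median 52.6) in ASC2 and 0 to 8.72 CPM (median 6.66) in ASC1. By the same rule the lowest ASC2 library was above the highest ASC1 library for Rorb. Iqcn (4.61) and Prl2c5 (4.67) completed the 12, and Prl2c5 belongs to a family of near-identical genes whose reads the quantification could split, so its value is uncertain. Of the 12, all but Prl2c5 (adjusted p = 0.056), Iqcn (0.0674) and Rorb (0.0722) also passed the test within letters E to H.

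**Figure D2:**
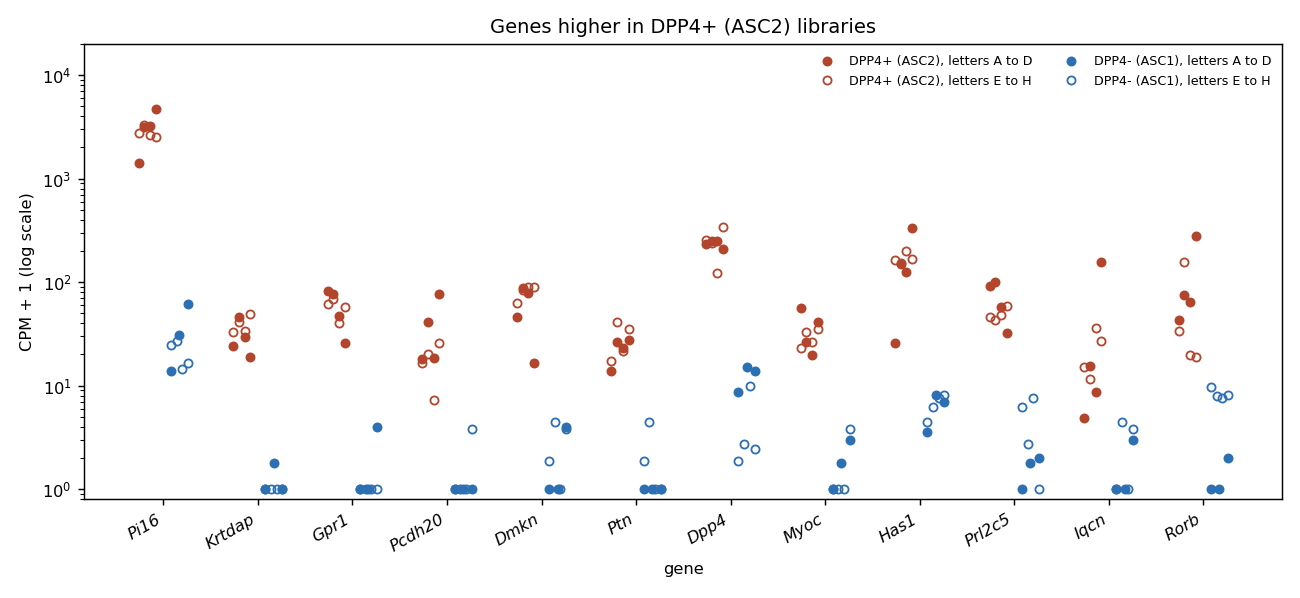
CPM + 1 on a log scale (y axis) of the 12 genes with the largest fold change higher in ASC2 (x axis), with 1 point per library, filled for letters A to D and open for E to H. For every gene the 8 DPP4+ libraries lie above the 7 DPP4- libraries, as the rule requires, for example at 1410 to 4733 against 12.7 to 60.7 CPM for Pi16.

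The 12 genes named for the largest fold change higher in ASC1 came from 102 of the 12464 genes tested that met the same rule. Steap4, a metalloreductase of adipose and inflamed tissue, lay at 2.2 to 40.1 CPM (median 16.9) in ASC2 and 84.6 to 198 CPM (median 133) in ASC1, with a log2 fold change of -2.85 ± 0.34 (SE) and an adjusted p of 6.70e-09. Agt, which encodes angiotensinogen, lay at 3.53 to 19.8 CPM (median 8.76) in ASC2 and 43.4 to 110.5 CPM (median 53.2) in ASC1, with a log2 fold change of -2.59 ± 0.44 (SE) and an adjusted p of 2.66e-05. Neither gene's groups overlapped, as the rule requires, and both passed in letters E to H, at -2.56 and -3.34. Slc16a3, the lactate exporter MCT4, lay at 9.09 to 70 CPM (median 51) in ASC2 and 179.6 to 361 CPM (median 232) in ASC1, with a log2 fold change of -2.48 ± 0.39 (SE) and an adjusted p of 6.76e-06. Cxcl14, a chemokine listed among markers of ASC1a, lay at 2.23 to 28.5 CPM (median 14.9) in ASC2 and 56 to 90.3 CPM (median 71.5) in ASC1, with a log2 fold change of -2.29 ± 0.38 (SE) and an adjusted p of 1.47e-05. These 2 genes also passed in letters E to H, at -2.34 and -2.12, so that 4 of the 12 did. Cxcl12, the chemokine that DPP4 cleaves and that binds CXCR4, lay at 51.3 to 165 CPM (median 99.7) in ASC2 and 312 to 733 CPM (median 402) in ASC1, a log2 fold change of -2.21 ± 0.35 (SE) over all libraries and of -1.42 (adjusted p = 0.146) in letters E to H. Adcyap1r1, a neuropeptide receptor, had its ASC1 libraries apart by letter, at 359 to 437 CPM in B to D and 101 to 127 CPM in E to H, against 12.1 to 69.2 CPM in ASC2. Without the 3 ASC1 libraries that held Tcf21 reads it lost its call, as did Bmper (-2.92), a BMP-binding protein, Ptprf (-2.10), a receptor tyrosine phosphatase, and Hsd11b1 (-2.08), which makes active glucocorticoid inside cells. Also among the 12 were Ndufa4l2 (-3.69), a hypoxia-induced mitochondrial protein, and Clcf1 (-1.95), a cytokine of the interleukin 6 family.

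**Figure D3:**
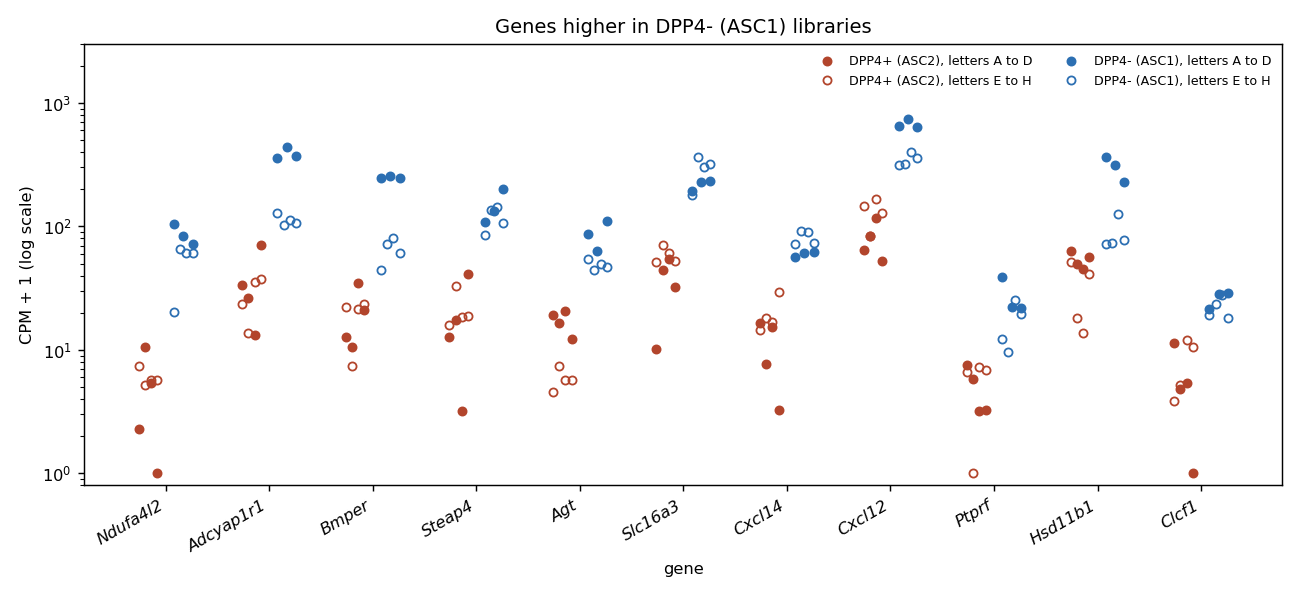
CPM + 1 on a log scale (y axis) of 11 of the 12 genes with the largest fold change higher in ASC1 (x axis), drawn in the same way. For every gene the 7 DPP4- libraries lie above the 8 DPP4+ libraries, as the rule requires, for example at 84.6 to 198 against 2.2 to 40.1 CPM for Steap4.

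Matrix genes of hyaluronan, collagens and proteoglycans were mostly higher in ASC2 where they passed. Hyaluronan is the large sugar polymer that fills loose connective tissue, and 3 of 10 tested genes of its synthesis and handling were higher in ASC2 and 0 in ASC1, with the same counts within letters A to D and within E to H and a median log2 fold change of 0.485. Beside Has1 these were Tnfaip6, which links hyaluronan to other matrix proteins, and Ugdh, which makes its sugar precursor. Tnfaip6 lay at 137 to 248 CPM (median 218) in ASC2 and 12.7 to 48.8 CPM (median 29) in ASC1, with a log2 fold change of 2.86 ± 0.36 (SE) and an adjusted p of 4.11e-08. Ugdh lay at 398 to 2126 CPM (median 750.3) and 199 to 382 CPM (median 287), with a log2 fold change of 1.72 ± 0.27 (SE) and an adjusted p of 4.38e-06. For both genes the lowest ASC2 library lay above the highest ASC1 library. Has2, the other synthase tested, was at 1.28 with an adjusted p of 0.0721. Of 10 small leucine-rich proteoglycans, which space collagen fibrils, 5 were higher in ASC2 and 1 in ASC1, and the counts were 4 and 0 in letters A to D and 3 and 0 in E to H. They were Omd (3.70), Ogn (1.96), Aspn (1.89), Prelp (1.18) and Dcn (0.99), against Podn (-1.54). Of 14 fibrillar and associated collagens, 3 were higher in ASC2 and 0 in ASC1, with 3 and 0 in letters A to D and 1 and 0 in E to H, namely Col14a1, Col6a6 (2.55) and Col6a1 (0.91), while the main fibrillar chains were at -0.22 (Col1a1, adjusted p = 0.632) and -0.02 (Col3a1, adjusted p = 0.979). Over the 14 collagens tested the median log2 fold change was -0.16. Col14a1, a collagen on the surface of fibrils, lay at 64.9 to 341 CPM (median 122) in ASC2 and 3.47 to 33.1 CPM (median 14.8) in ASC1, a log2 fold change of 3.35 ± 0.47 (SE). All ASC2 libraries lay above all ASC1 libraries.

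Elastic and adhesive matrix genes (33 tested) went both ways, with 6 higher in ASC2 and 4 in ASC1 over all libraries, 5 and 4 in letters A to D and 5 and 0 in letters E to H. Their median log2 fold change over all libraries was -0.0787. Tnxb, a tenascin that binds collagen, lay at 155 to 482 CPM (median 307) in ASC2 and 29.5 to 129.9 CPM (median 42.2) in ASC1, a log2 fold change of 2.39 ± 0.42 (SE) with 1.53 in A to D and 3.27 in E to H. Efemp1 (1.48), a fibulin, and Ltbp1 (1.85), which stores latent TGF-beta in the matrix, were also higher in ASC2. The 4 higher in ASC1 were Ltbp2 (-2.60), Fbln7 (-2.20), Vtn (-2.07) and the crosslinking enzyme gene Lox (-1.14), and none of them passed in letters E to H. Of 18 basement membrane genes, 2 were higher in ASC2, Col18a1 (0.95) and Nid1 (0.80), and 1 in ASC1, Hspg2 (-0.71), with 0 and 1 in letters A to D and 1 and 0 in E to H. Of 27 matrix proteases and inhibitors, 3 were higher in each group, with 3 and 4 in letters A to D and 1 and 1 in E to H. Timp3 (1.64) and Timp2 (0.79), inhibitors of matrix metalloproteinases, and Plat (0.80), a plasminogen activator, were higher in ASC2, while Timp1 (-1.43) and Mmp3 (-0.93), a metalloproteinase, were among those higher in ASC1. Timp3 passed in both letter sets, Timp1 in A to D only (adjusted p = 0.116 in E to H) and Timp2 in neither.

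Among signalling genes, the Wnt ligand genes Wnt10b and Wnt2 were higher in ASC2 over all libraries and in both letter sets, and no Wnt ligand was called higher in ASC1 over all libraries. Wnt ligands bind Frizzled receptors and, through beta-catenin, can hold back adipogenesis, while the Sfrp proteins bind Wnts outside the cell. Of 35 Wnt pathway genes tested, 8 were higher in ASC2 and 3 in ASC1. The counts were 8 and 2 in letters A to D and 3 and 0 in E to H. Their median log2 fold change was 0.34 over all libraries, but -0.125 in letters A to D and 0.292 in E to H. Wnt10b lay at 3.56 to 22.2 CPM (median 12.8) in ASC2 and 0 to 1.42 CPM (median 0) in ASC1, 84 reads in ASC2 and 3 in ASC1 in all, a ratio per scaled read depth of 23.8 (95% exact interval 7.87 to 118), with an adjusted p of 1.97e-05. Wnt2 lay at 49.9 to 95.9 CPM (median 60.5) and 4.27 to 22.2 CPM (median 12.2), a log2 fold change of 2.38 ± 0.35 (SE) with an adjusted p of 1.58e-06. The groups of libraries did not overlap for either gene, with ASC2 the higher. Sfrp4 (2.11) also passed in letters E to H. The ligand Wnt5a (0.98) passed over all libraries at an adjusted p of 0.0452, but not in either letter set, nor with a replicate block (0.0948), the Xist class as a covariate (0.0569), no scaling (0.0536) or no filter on low counts (0.0938). Sfrp2 (1.37), the nuclear factor Tcf7l2 (1.55) and the inhibitors Apcdd1 (1.15) and Dact2 (2.29) passed over all libraries. The 3 higher in ASC1 were Sfrp1 (-2.12), Nkd2 (-1.31) and the receptor gene Fzd1 (-0.88). Sfrp1 was at -2.98 in A to D and -0.19 in E to H, an adjusted p for the difference of 0.0342. Tcf7l2, Apcdd1 and Fzd1 lost their calls on the 15 libraries alone and with the Xist class as a covariate. Without the 3 ASC1 libraries with Tcf21 reads, 3 genes of the list were higher in ASC2 and 0 in ASC1.

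Of 39 genes of the TGF-beta and BMP pathway, 6 were higher in ASC2 and 3 in ASC1, with 4 and 4 in letters A to D and 2 and 0, namely Bmp7 and Ltbp1, in E to H. Over these 39 genes the median log2 fold change was -0.179. The ligands Bmp3 (30 reads in ASC2 and 0 in ASC1, at least 8.5-fold higher against a floor of 3 reads over the group), Bmp4 (1.75) and Tgfb2 (2.39) were higher in ASC2 over all libraries, and the ligand Gdf10 (-1.49), the activin-binding Fstl3 (-2.58) and the co-receptor Eng (-1.43) were higher in ASC1. In the IGF system (12 tested), 3 genes were higher in ASC2 and 2 in ASC1, with 2 and 1 in letters A to D and 2 and 0 in E to H. Igfbp5, an IGF-binding protein, lay at 145 to 488 CPM (median 279) in ASC2 and 10.2 to 62.7 CPM (median 42.7) in ASC1, a log2 fold change of 2.75 ± 0.39 (SE). All ASC2 libraries lay above all ASC1 libraries. Igfbp6 (1.47) and the ligand Igf2 (24 reads in ASC2 and 3 in ASC1) were also higher in ASC2, Igfbp7 (-1.34) and Igf2r (-0.94), the receptor that clears IGF2, were higher in ASC1, and only Igfbp5 and Igfbp6 passed in letters E to H. Of 33 genes of the FGF, PDGF, VEGF, angiopoietin and neurotrophin families, 3 were higher in ASC2, among them Pdgfd (2.06), and 5 in ASC1, among them Vegfa (-1.03) and Ntf3, a neurotrophin (2 reads in ASC2 and 39 in ASC1), with 3 and 6 in letters A to D and 2 and 0 in E to H. Vegfa passed in neither letter set. Of 27 axon guidance and neural genes, 6 were higher in ASC2 and 2 in ASC1, with 6 and 2 in letters A to D and 4 and 0 in E to H. Among the semaphorins, Sema3c, Sema3e and Sema3b were higher in ASC2 and Sema3f (-2.42) was higher in ASC1. The call of Sema3f was lost in letters E to H (adjusted p = 0.544) and without the 3 ASC1 libraries with Tcf21 reads.

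Of 34 chemokine, cytokine and related genes, 6 were higher in ASC2 and 8 in ASC1, with 6 and 4 in letters A to D and 4 and 2 in E to H. The 6 included Has1, which the list also held, and Cxcl1, a neutrophil chemokine, which lay at 31.8 to 215 CPM (median 69.4) in ASC2 and 3.47 to 26.9 CPM (median 9.59) in ASC1, a log2 fold change of 2.74 ± 0.47 (SE) with an adjusted p of 3.52e-05. Il18 lay at 20.4 to 86.9 CPM (median 52.4) and 1.56 to 15.6 CPM (median 5.97), a log2 fold change of 3.01 ± 0.42 (SE) with an adjusted p of 6.74e-07. Each ASC2 library exceeded each ASC1 library in both genes. Cxcl13 (2.51), Tslp (1.85) and Ackr3 completed the 6. Higher in ASC1, beside Cxcl12 and Cxcl14, were Ccl19 (3 reads in ASC2 and 46 in ASC1), Saa3 (-3.73), Cxcl5 (-2.83), Cxcl16 (-1.46), Ccl8 (-1.31) and Tnfrsf11b, the decoy receptor of RANKL (3 reads in ASC2 and 52 in ASC1). Of these 6, only Ccl8 passed in letters E to H, at -1.66, and it was at 0.25 in A to D.

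Of 20 complement genes, 6 were higher in ASC2 and 5 in ASC1. The counts were 2 and 4 in letters A to D and 3 and 0 in E to H, so that more were higher in ASC1 in the former and more in ASC2 in the latter. C3, the central component, lay at 844 to 3164 CPM (median 1797) in ASC2 and 106 to 504 CPM (median 226) in ASC1, a log2 fold change of 2.56 ± 0.53 (SE) with an adjusted p of 5.22e-04. All ASC2 libraries lay above all ASC1 libraries. The regulators Cd55 and Serping1 (1.53) were higher in ASC2 as well, and passed with C3 in letters E to H, while in letters A to D C3 was at 1.62 (adjusted p = 0.174) and Serping1 at 1.17 (adjusted p = 0.155). Among the 5 higher in ASC1 were C1qa (-2.02), C1qb (-1.68) and C1qc (-1.97), which macrophages make. The macrophage and leukocyte list as a whole had 8 of 17 genes higher in ASC1 and 0 in ASC2, with 8 and 0 in letters A to D and 0 and 0 in letters E to H. For C1qa the ASC1 libraries B to D were at 94.2 to 127 CPM, ASC1 E to H at 8.72 to 18.5 CPM and ASC2 at 6.69 to 27.6 CPM. The high C1q values were thus those of the 3 ASC1 libraries with Tcf21 reads.

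Of the adipogenic transcription factors and lipid handling genes that passed over all libraries, Mgll was the only one to pass in letters E to H. Of 13 transcription factors of adipogenesis, 3 were higher in ASC2, namely Pparg, Ebf1 (1.02) and Ebf2 (1.13), and 0 in ASC1, with 2 and 0 in letters A to D. Pparg, the nuclear receptor that drives fat cell formation, lay at 15.7 to 79.2 CPM (median 49) in ASC2 and 11.1 to 19.2 CPM (median 12.9) in ASC1, a log2 fold change of 1.62 ± 0.43 (SE) with an adjusted p of 0.00796. Its log2 fold change was 2.06 in A to D and 1.01 (adjusted p = 0.58) in E to H, and within letters E to H no gene of the list passed. Of 24 genes of lipid uptake and storage, 1 was higher in ASC2, Mgll (2.22), the monoglyceride lipase, and 4 in ASC1, namely Apoe, G0s2 (-2.01), Fabp5 (-1.81) and Gpihbp1 (-1.43). The counts were 0 and 3 in letters A to D and 1 and 0 in E to H, and without the 3 ASC1 libraries with Tcf21 reads none of the list was higher in ASC1. Apoe, which carries lipid in lipoproteins and is also abundant in macrophages, was at -4.13 in A to D and -0.29 in E to H, an adjusted p for the difference of 0.0232. Of 16 markers of ASC1a, 3 were higher in ASC1, Apoe, Cxcl14 and G0s2, and 2 in ASC2, Dlk1 (3.00) and Pparg, with 1 and 3 in letters A to D and 0 and 1 in E to H. Of 9 markers of ASC1b, 5 were higher in ASC1 and 0 in ASC2, namely Clec11a (-2.61), Gdf10, Fmo2 (-1.35), F3 (-1.21) and Vit (-0.94). In letters A to D the counts were 0 and 3, and none of the 9 passed within letters E to H, where Clec11a was at -2.61 (adjusted p = 0.159).

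Hormone and retinoid genes were called in both directions. Of 16 steroid receptor and enzyme genes, 2 were higher in ASC2, among them Akr1c14 (1.81), a hydroxysteroid dehydrogenase, and 2 in ASC1, Hsd11b1 and Cyp1b1 (-1.55), with 1 and 2 in letters A to D and none in letters E to H. Esr1, the oestrogen receptor alpha, lay at 11 to 73.6 CPM (median 20.5) in ASC2 and 6.95 to 22.2 CPM (median 12.9) in ASC1, a log2 fold change of 1.13 ± 0.40 (SE) with an adjusted p of 0.0502. The groups overlapped for Esr1. In the renin-angiotensin system (10 tested), the precursor gene Agt was higher in ASC1 while the receptor gene Agtr1a (1.63) and the peptidase gene Anpep (0.87) were higher in ASC2, with 2 and 2 in letters A to D and 0 and 1, Agt, in E to H. Of 17 genes of retinoid handling, 3 were higher in each group, with Aldh1a3 (1.74) and Aldh1a1 (0.85), which make retinoic acid, and the receptor gene Rarg (0.66) higher in ASC2 and Aldh1a2 (-5.28) and Rbp4 (-2.04), a retinol carrier, among those higher in ASC1. The counts were 1 and 2 in letters A to D and 1 and 0 in E to H, and none of the list was higher in ASC1 without the 3 ASC1 libraries with Tcf21 reads. Aldh1a2, which also makes retinoic acid, was at -5.54 in A to D and -4.26 (adjusted p = 0.663) in E to H. Rarg passed over all libraries at an adjusted p of 0.0416. It lost its call on the 15 libraries alone and with a replicate block, the Xist covariate, no scaling or no filter. Of 20 mesenchymal surface markers, 4 were higher in ASC2, among them Cd34 (1.72), itself used in the sort of both groups, and Procr (1.53), and 2 in ASC1, Eng and Mcam (-1.24). Of these markers 1 and 1, Cd34 and Eng, passed in letters A to D and none in E to H. Of 28 cell cycle genes, 0 were higher in ASC2 and 1, Mcm6 (-0.91), in ASC1, and none passed in either letter set.

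Immediate early genes are induced within minutes of a stimulus and need no new protein for it. Of 29 immediate early and stress genes tested, 11 were higher in ASC2 and 1, Ccn2 (-1.73), in ASC1, with a median log2 fold change of 0.755 over the list. The counts were 6 and 1 in letters A to D and 8 and 0 in E to H. Nr4a1, an orphan nuclear receptor, lay at 102 to 638 CPM (median 233) in ASC2 and 9.96 to 21.1 CPM (median 11.1) in ASC1, a log2 fold change of 4.19 ± 0.47 (SE) with an adjusted p of 2.52e-09, at 4.14 in A to D and 4.18 in E to H. Fos, a subunit of the factor AP-1, lay at 523 to 1004 CPM (median 662) and 87.2 to 287 CPM (median 148), a log2 fold change of 2.01 ± 0.34 (SE) with an adjusted p of 2.90e-05. For both genes the lowest ASC2 library lay above the highest ASC1 library. Fosb (3.92), the paralog of Fos, Btg2 (3.54), an antiproliferative gene, Zfp36 (2.29), which destabilizes cytokine mRNAs, Klf4 (2.32), Dusp1 (1.96) and Klf6 (0.76) were also higher, whereas Jun, the partner of Fos, was at 0.79 with an adjusted p of 0.133. In letters A to D Klf4 (adjusted p = 0.194), Klf6 (0.068) and Dusp1 (0.13) did not pass. Atf3 was at 0.10 (adjusted p = 0.944) in A to D and 2.96 (adjusted p = 0.00407) in E to H.

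The sequence before the start of these genes was read for the letters TGACG, the core of cyclic AMP response elements, on either strand within 250 bases. Promoter sequences are from RefSeq on GRCm38.p6, and 10 of the 11 immediate early genes higher in ASC2 had one. TGACG was in 7 of the 10, in 11 of the 22 list genes tested that had a promoter (50%), in 27.5% of all genes tested, in 26.8% of all genes higher in ASC2 and in 17.9% of all 27025 promoters. The genes higher in ASC2 as a whole thus held it about as often as the genes tested. The windows of 4 of the immediate early genes and of Has1 are shown 5′ to 3′ on the strand of the gene and end at its start, with TGACG, or CGTCA where it lies on the opposite strand, in capitals.
Nr4a1, chr15:101266596-101266845, plus strand: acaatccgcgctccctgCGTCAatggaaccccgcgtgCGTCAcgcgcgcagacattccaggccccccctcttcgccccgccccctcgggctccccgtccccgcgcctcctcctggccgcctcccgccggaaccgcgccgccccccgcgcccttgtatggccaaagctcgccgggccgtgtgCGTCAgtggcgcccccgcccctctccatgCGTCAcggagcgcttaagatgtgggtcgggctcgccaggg
Fos, chr12:85473640-85473889, plus strand: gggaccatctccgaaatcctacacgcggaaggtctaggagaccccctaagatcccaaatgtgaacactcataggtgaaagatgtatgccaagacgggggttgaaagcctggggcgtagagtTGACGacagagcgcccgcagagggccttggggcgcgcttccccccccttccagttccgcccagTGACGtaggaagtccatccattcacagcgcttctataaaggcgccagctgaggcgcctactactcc
Fosb, chr7:19310046-19310295, minus strand: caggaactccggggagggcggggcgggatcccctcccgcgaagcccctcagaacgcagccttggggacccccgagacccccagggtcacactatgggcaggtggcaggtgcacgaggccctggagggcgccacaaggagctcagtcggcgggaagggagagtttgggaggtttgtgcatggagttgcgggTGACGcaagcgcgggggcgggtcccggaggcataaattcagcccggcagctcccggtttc
Btg2, chr1:134079156-134079405, minus strand: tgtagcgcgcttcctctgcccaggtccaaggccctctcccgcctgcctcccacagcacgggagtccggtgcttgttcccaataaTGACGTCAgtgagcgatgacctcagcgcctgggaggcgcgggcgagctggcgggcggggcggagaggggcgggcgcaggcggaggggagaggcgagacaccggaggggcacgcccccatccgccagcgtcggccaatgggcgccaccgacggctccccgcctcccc
Has1, chr17:17855189-17855438, minus strand: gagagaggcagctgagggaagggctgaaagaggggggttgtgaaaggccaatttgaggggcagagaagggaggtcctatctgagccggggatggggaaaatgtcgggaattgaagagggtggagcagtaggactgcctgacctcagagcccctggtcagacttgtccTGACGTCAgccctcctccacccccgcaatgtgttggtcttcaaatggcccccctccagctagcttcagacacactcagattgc
In Nr4a1 the motif began 233, 213, 69 and 40 bases before the start, in Fos 129 and 66, in Fosb 60, and in Btg2 and Has1 it lay on both strands in overlap, from 166 and 83 bases before the start. A match in letters is a description of the sequence, and nothing in these libraries measured binding.

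Of 19 genes of glucose uptake, glycolysis and lactate export, 14 were higher in ASC1 and 0 in ASC2, a list that was written after these values were seen, with 10 and 0 in letters A to D and 9 and 0 in letters E to H. The median log2 fold change of the list was -0.95, against -0.01 over all genes tested. Pgk1, phosphoglycerate kinase, lay at 346 to 867 CPM (median 587) in ASC2 and 941 to 1620 CPM (median 1309) in ASC1, a log2 fold change of -1.07 ± 0.17 (SE) with an adjusted p of 4.66e-06. Ldha, which makes lactate, lay at 805 to 1949 CPM (median 1535) and 2439 to 3074 CPM (median 2880), a log2 fold change of -0.89 ± 0.14 (SE) with an adjusted p of 9.14e-06. Each ASC1 library exceeded each ASC2 library in both genes. Pgam1 (-1.27), Pkm (-0.99) and the glucose transporter gene Slc2a1 (-1.18) were also higher in ASC1, and these 3 genes passed in both letter sets. The letters ACGTG, the core of the hypoxia response element, were in 6 of the 14 promoters (42.9%), in 8 of the 19 of the list (42.1%), in 21.7% of all genes tested, in 22.7% of all genes higher in ASC1 and in 16.6% of all promoters. Among the immediate early genes higher in ASC2, 4 of the 10 promoters (40%) held ACGTG too, a similar share. Of the 6 glycolysis promoters, Slc16a3, Pgk1 and Ldha are shown in the same way, with ACGTG, or CACGT on the opposite strand, in capitals.
Slc16a3, chr11:120948817-120949066, plus strand: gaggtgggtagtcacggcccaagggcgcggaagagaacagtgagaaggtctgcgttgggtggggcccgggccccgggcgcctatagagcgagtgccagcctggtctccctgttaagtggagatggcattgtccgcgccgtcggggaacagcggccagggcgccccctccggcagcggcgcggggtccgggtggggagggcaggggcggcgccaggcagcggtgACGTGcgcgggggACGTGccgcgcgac
Pgk1, chrX:106186850-106187099, plus strand: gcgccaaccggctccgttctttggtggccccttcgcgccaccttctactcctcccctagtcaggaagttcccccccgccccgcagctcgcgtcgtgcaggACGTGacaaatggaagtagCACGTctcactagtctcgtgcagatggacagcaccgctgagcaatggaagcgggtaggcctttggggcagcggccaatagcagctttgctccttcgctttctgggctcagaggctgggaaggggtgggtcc
Ldha, chr7:46845554-46845803, plus strand: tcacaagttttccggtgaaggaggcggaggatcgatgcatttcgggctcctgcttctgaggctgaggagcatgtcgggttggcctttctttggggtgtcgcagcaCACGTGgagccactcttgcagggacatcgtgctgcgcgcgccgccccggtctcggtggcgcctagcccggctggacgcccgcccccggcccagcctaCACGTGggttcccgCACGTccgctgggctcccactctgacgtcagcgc
In Slc16a3 the motif began 27 and 14 bases before the start, in Pgk1 150 and, on the opposite strand, 131, and Ldha held 5 matches, from 145 to 34 bases before the start, of which 4 overlapped in pairs. The windows of Pgk1 and Ldha thus held the letters on both strands.

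**Figure D4:**
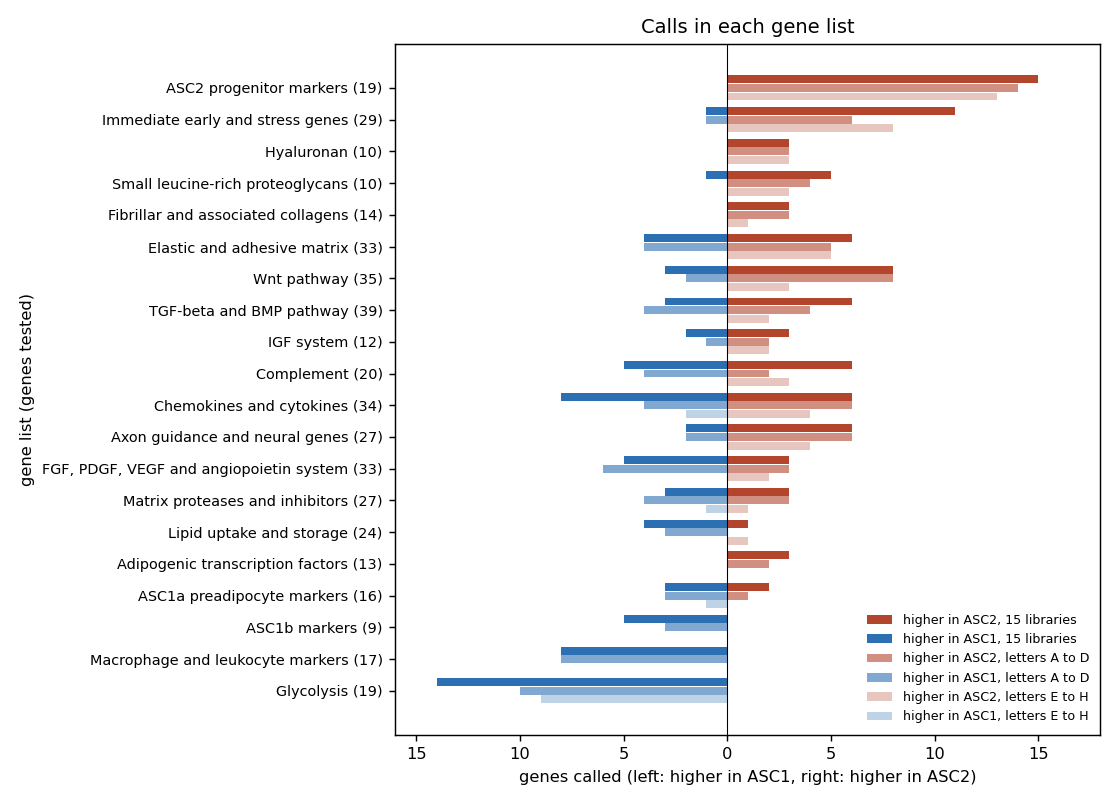
Number of genes called (x axis, higher in ASC2 to the right and higher in ASC1 to the left) for each gene list (y axis, with the number tested), over all 15 libraries in full colour, in letters A to D in a paler and in letters E to H in the palest colour. The ASC2 progenitor list reaches 15, 14 and 13 to the right, while the macrophage list reaches 8 to the left over all libraries and in letters A to D and 0 in letters E to H.

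The size of the ASC2 minus ASC1 difference depended on the letter set for 99 genes of 12464 (0.794%), tested directly, of which 38 were higher and 61 lower in A to D than in E to H. The genes named here were chosen after their values were seen. For Tnc, an adhesion-modulating matrix protein, ASC2 lay at 511 to 1318 CPM, ASC1 E to H at 1000 to 1219 CPM and ASC1 B to D at 33.1 to 46.2 CPM. ASC1 thus lay within the range of ASC2 in letters E to H and far below it in B to D, with log2 fold changes of 0.06 and 3.85 and an adjusted p for the difference of 1.08e-06. Crabp1, a retinoic acid-binding protein, was also low in ASC1 B to D, at 5.09 to 8.61 CPM, but lay above ASC2 in letters E to H, at 936 to 1492 CPM against 51.3 to 489 CPM over ASC2 (adjusted p for the difference = 1.92e-06). Gap43 (6.06 and 0.10 in A to D and E to H), Il1rl1 (4.15 and -0.51), the receptor of IL-33, and Tbx15 (2.75 and -0.64, adjusted p for the difference = 0.0176) also differed this way. Asic3, an acid-sensing ion channel, went the other way, at 113 to 155 CPM in ASC1 B to D, 1.74 to 8.88 CPM in ASC1 E to H and 0 to 8.48 CPM in ASC2. Ltbp2 was at -4.40 in A to D and -0.15 in E to H. In each of these 7 genes the ASC1 libraries B to D, which held the Tcf21 reads, lay outside the range of the other 12 libraries. Without those 3 libraries, 613 genes were called over the remaining 12, 419 higher in ASC2 and 194 higher in ASC1. Letter set, Xist and Tcf21 cannot be told apart in ASC1, where all 3 libraries without Xist had Tcf21 reads.

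**Figure D5:**
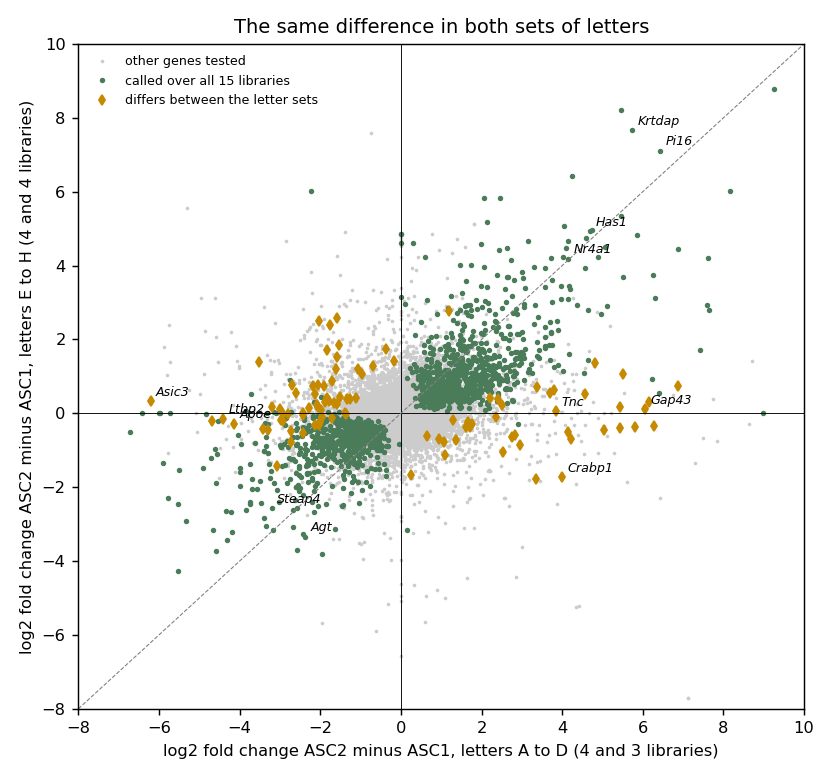
Log2 fold change ASC2 minus ASC1 of the 12464 genes tested in letters A to D (x axis) and in letters E to H (y axis), with genes called over all 15 libraries in green, genes that differ between the letter sets as diamonds, and the line of equal change dashed. Pi16, Has1 and Nr4a1 lie near the line, while Tnc and Gap43 lie near 0 in letters E to H and Asic3 and Ltbp2 lie far to the left.

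Set beside the same difference in control females, which shares no library with it, the control male difference departed in 16 genes (0.128%) by a test of the interaction. Ptn was at 5.07 in control males and 0.30 in control females (adjusted p for the difference = 0.00216), with a mean in ASC1 of 0.621 CPM in males and 11.2 CPM in females. Ltbp1 was at 1.85 and 0.28 (adjusted p = 0.0461). Eln, which encodes elastin, was at 0.20 in males and 2.28 in females (adjusted p = 0.0384), and Serpina3c, a protease inhibitor of adipose tissue, at 1.68 and 4.89 (adjusted p = 0.00645). Pi16 was at 6.76 and 6.64. The number of departures ranged from 7 to 591 over the settings tried, with 591 when libraries whose Xist reads went against their label were left out. That setting kept 3 of 7 control male ASC1 libraries, all with Tcf21 reads. Of control female ASC1 it kept 2 of 8 libraries, both at 0 Tcf21 reads. Under it the calls of Ptn, Ltbp1, Eln and Serpina3c remained, while 4 of the 12 named departures from females, Cavin2, Irf4, Chrdl1 and Arl5c, lost theirs. Ltbp1 also lost its call with voom, with no filter on low counts and with robust dispersion, and Eln with robust dispersion. Against castrated males the difference departed in 301 genes (2.41%). Agt was at -2.59 in control males, -1.48 in control females and 3.01 in castrated males, with an adjusted p of 1.43e-06 for the departure from castrated males. Its mean was 22 CPM in castrated male ASC2 and 3.46 CPM in castrated male ASC1, against 10.5 and 64.3 CPM in control males. Xist and Ddx3y were also among the named departures, at -0.31 and -5.52 and at 0.49 and 4.95 in control and castrated males. With 20 Xist reads as the threshold, Xist went against the label in 8 of 15 control male, 8 of 16 control female and 7 of 16 castrated male libraries. All 7 of the latter were of ASC1, and the remaining ASC1 library of castrated males held 13 Xist reads and 0 Y-linked reads. Hormone status and the source of the libraries cannot be told apart in either comparison.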

How the data were processed

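RNA of sorted ASCs was sequenced with Smart-seq3. The authors deposited estimated counts per gene from Salmon 1.9.0 on GRCm39, after trimming adapters with NGmerge and leaving out libraries with fewer than 8500 detected genes, and per the labels STAR 2.7.10a, FastQC 0.11.9 and MultiQC 1.12 were also run. Of the counts above 0, 15% were not whole, and all were rounded. The table held 56953 genes, and 12464 with at least 5 reads in more than 3 of the 58 libraries were tested.

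All 8 groups of the series were fitted together with edgeR 4.0.16 (TMM scaling, quasi-likelihood test, Benjamini-Hochberg adjusted p under 0.05) in R 4.3.3, and contrasts gave the control male difference, its difference between letter sets (on the 15 control male libraries) and its departure from control females and castrated males. The common biological coefficient of variation was 35.6%. CPM are counts scaled to the TMM-adjusted library size, except in the sums of cell type markers, which are scaled to the summed counts alone. Depth was 407001 to 1421547 counts per library, which limits genes of few reads. Replicates differed by more than sampling noise. The fit was tested on simulated data.

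Named genes were the 12 in each direction with the largest fold change among those called, with a mean of at least 20 CPM in the higher group and no overlap between groups, and for each departure the 6 largest in each direction among those called with a mean of at least 20 CPM in at least 1 group. The members and gene lists were chosen with earlier results of these data known. Alternatives used RLE or no scaling, other filters, robust dispersion, DESeq2 1.42.0, limma 3.58.1 with voom, other sets of libraries and a letter block. Intervals on ratios of reads are exact conditional binomial at 95%. Promoters are RefSeq sequences matched by symbol, with 9458 of 12458 tested symbols found. A few genes are not reported here, although they count in the totals of genes and lists.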

Additional observations from a re-analysis of the deposited data

Results flagged for a closer look

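Among the named genes, 11 of the 46 groups of libraries tested held a library far from the others by Dixon's ratio of gap to range, where chance gives about 1 in 20. In ASC1 these were library C for Krtdap (ratio 1.0, 0.783 CPM with the others at 0), D for Gpr1 (1.0), H for Pcdh20 (1.0), F for Ptn (0.581) and E for Ndufa4l2 (0.667, the lowest). In the 3 genes at 1.0 every other ASC1 library was at 0, so the ratio follows from few reads. In ASC2 the lowest library stood apart, namely A for Has1 (0.618, at 24.7 CPM) and Slc16a3 (0.595, at 9.09 CPM), D for Dmkn (0.612) and Clcf1 (0.54), C for Steap4 (0.539) and F for Ptprf (0.577).

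The ASC2 minus ASC1 difference departed between the letter sets A to D and E to H for 99 genes, between control males and control females for 16 genes and between control males and castrated males for 301 genes, each by a test of the difference itself. The libraries of these groups differed in Xist and Tcf21 reads as well, and the part of that in the departures was not tested.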

How the results depend on the processing

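The count of 1519 genes called (858 and 661) was 1249 to 1722 under other scaling, filters, dispersion and tools, with RLE scaling, no scaling, no filter, filterByExpr, DESeq2 and voom, and 1148 on the 15 libraries alone. Leaving out each library gave 1091 to 1647 calls, 602 to 953 higher in ASC2 and 436 to 743 higher in ASC1. It was 904 (535 and 369) at 2-fold. Without the ASC1 libraries with Tcf21 reads, a setting chosen after seeing the data, it was 613 (419 and 194). Without the libraries with Xist it was 1231, on 4 libraries of ASC2 and 3 of ASC1. Without those lacking Xist it was 174 (136 and 38), on 4 libraries of each. The reason for this gap was not tested. The 24 named genes kept their calls under the settings tried except 11 in letters E to H and 4 without the Tcf21 libraries. Of the 160 list genes called, 54 lost the call when at least 1 library was left out, 25 with voom, 18 with the replicate block, 18 with the Xist class as a covariate, 15 of 152 on the 15 libraries alone, 13 with no filter, 30 at 2-fold, 62 in letters A to D, 101 of 157 in letters E to H, 61 of 157 without the Tcf21 libraries and 0 to 7 under RLE or no scaling, filterByExpr, robust dispersion and DESeq2. In sign, Ccl8 was at 0.25 without the Xist libraries, Cfp (0.18) and Lyz2 (0.23) were above 0 without those lacking Xist, and Cfp (0.37), Tyrobp (0.11), Sfrp1 (0.022), C1qb (0.23) and Lyz2 (0.84) without the Tcf21 libraries. The cause was not tested.

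The departures from control females were 25 with RLE, 38 with no scaling, 7 with robust dispersion, 150 with DESeq2, 29 with voom and 591 without libraries whose Xist went against the label, against 16. The setting with 591 kept 2 of 8 ASC1 libraries of control females and 3 of 7 of control males. Those from castrated males were 263 to 402, and were not run without such libraries, since castrated male ASC1 kept 1 of 8. Between libraries of the same letter, correlations of deviations were 0.0527 to 0.192 over 7 pairs, 2 of them over 0.1. For 2 of these 7 letters the ASC2 library correlated best with the ASC1 library of its own letter. With the letter as a replicate block 1305 genes were called, against 1088 on the same 14 libraries without it. These values do not settle whether a letter pairs the libraries.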
